A study of Drosophila melanogaster with 10 samples.

Results

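The genes described here are 58 Drosophila melanogaster genes that carry only a CG number, the systematic label of a gene that has not been given a name, and whose levels in whole larvae were shifted the same way in both perturbations of the series. They were chosen by 1 rule. The mean log2 value in jarid2-mb larvae and the mean in larvae labelled ez-rnai each had to differ from the control larvae by at least 1 (2-fold) in the same direction, with all 4 perturbed arrays beyond both control arrays, and genes at least 2 log2 units lower in mutant than in control disc cells were left out. Of 11982 genes measured by a probe set with 1 annotated gene, 5209 had only a CG number, and 58 of these met the rule, 35 higher and 23 lower in both larval groups. Since the larval and disc differences chose the genes, they are given as descriptions without a test.

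The series holds 10 samples on 1-colour Affymetrix arrays, with 2 samples in each of 5 groups. Each larval sample was made from 20 whole larvae in the third instar, in 3 groups: controls with a genotype field of wild type, larvae of the Jarid2 mutant line (mb, given in the labels as Jarid2MB00996/TM3), and larvae titled ez-rnai, for which a UAS-E(z)-RNAi transgene was used while the genotype field also reads wild type. The disc groups were control cells and cells of the same Jarid2 line from the eye-antennal imaginal disc, the larval epithelium that forms the adult eye and antenna. About 500.0 discs were dissociated for each disc sample and the cells were separated by GFP. All flies were raised at 25 °C. The driver of the RNAi transgene, the strain of the controls, the GFP fraction kept, and whether the mutant animals lacked the TM3 balancer chromosome are not stated in the labels. The Jarid2 line is 1 insertion line, and the labels do not say that replicates came from separate cultures, so the spread between the 2 arrays of a group may be technical.

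Polycomb repressive complex 2 places a repressive methyl mark on histone H3, and E(z) is its catalytic subunit. Jarid2 is an accessory protein of the complex that belongs to the Jumonji family but is not known as an active demethylase. Loss of such regulators is best known for releasing developmental regulators from silencing, while little is recorded for genes without a name. The reference gene table assigned a family or enzyme name as a synonym to some of the 58 genes. A series of synonyms made of Dro and a number belongs to the ecdysteroid kinase-like genes, a large insect family named for an enzyme that phosphorylates moulting hormones. Many synonyms made of SP and a number belong to serine proteases and their inactive relatives, which in insects serve digestion and immune cascades, although genes of other kinds, such as Ank2 and Aplip1, carry such a synonym too.

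Jarid2 values were lower in the groups labelled as Jarid2 mutant, while E(z) values were higher, not lower, in the larvae labelled ez-rnai. The cause of the higher E(z) values was not tested. Jarid2 read between 9.34 and 9.63 in the control and ez-rnai larvae, 4.19 and 4.26 in jarid2-mb larvae, 10.10 and 10.14 in control disc cells, and 7.64 and 6.80 in mutant disc cells. E(z) read 8.53 and 8.31 in control larvae and 9.25 and 9.56 in the larvae labelled ez-rnai, so every direction given for that group comes with a higher E(z) value, not a lower one. Values of the pigmentation gene y were 8.01 and 7.79 in the larvae labelled ez-rnai and 3.51 to 3.80 in the other 8 arrays, so the groups differed in y as well as in what their labels name, and the part of genetic background was not tested. The upper quartile of every array was 9.41 to 9.49, but the array medians differed by tissue, at 7.39 to 7.54 for larvae and 5.55 to 5.62 for discs.

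The 2 larval comparisons share their 2 control arrays, and these did not read alike. Over all 11982 genes the second control array was at least 1 higher than the first for 1035 genes and at least 1 lower for 173. Without the first control array the rule found 338 genes (63 higher, 275 lower), including 51 of the 58. Without the second it found 76 genes, of which 50 were among the 58. With each of the 6 larval arrays left out in turn, 35 of the 58 genes met the rule every time, 21 of the 35 higher and 14 of the 23 lower genes. Among the 23 lower genes the second control array was the higher for 18 (78.3%), and at least 1 higher for 4 (17.4%). Among the 35 higher genes these counts were 22 (62.9%) and 2 (5.71%). Over all genes with only a CG number the shares were 49.2% and 14.5%. The rule used these arrays, so nothing is read from the counts.

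The 35 higher genes had a median log2 difference from control of 1.43 in jarid2-mb larvae (range 1.00 to 3.62) and of 1.73 in larvae labelled ez-rnai (1.02 to 3.53). The 23 lower genes had medians of -1.81 (-5.08 to -1.12) and -1.57 (-5.13 to -1.06). Over all genes the median differences were 0.01 and 0.03. Without its disc exclusion the rule was met by 0.926% of all genes (0.542% higher, 0.384% lower), by 1.19% of those with only a CG number and by 0.723% of those with another symbol. Of the 58 genes, 13 differed from control at least 4-fold in both groups, 8 higher and 5 lower. The gap between the nearest perturbed and the nearest control array had a median of 1.01 log2 units but ranged from 0.01 to 4.19, and in 21 of the 58 genes it was smaller than the largest difference between 2 arrays of 1 larval group. Levels here come from whole animals, in which fewer cells of a type and less RNA per cell cannot be told apart.

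**Figure D1:**
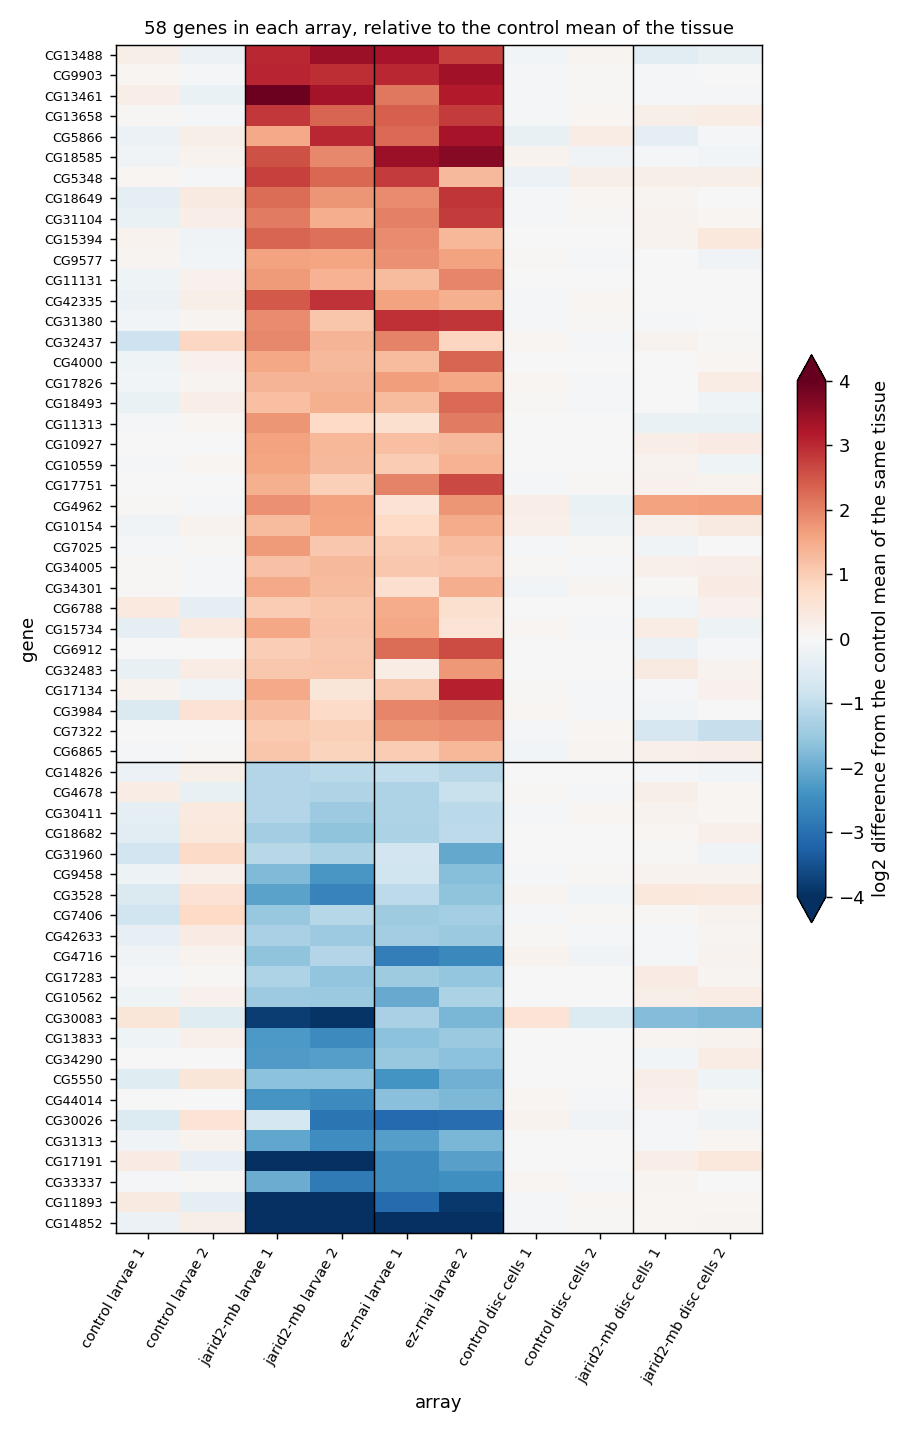
Log2 difference of each array from the mean of the control arrays of the same tissue, for the 58 genes (rows, ordered by the smaller of the 2 larval differences) in the 10 arrays (columns, vertical lines between groups), with colours saturating at 4 either way. The larval columns split into 35 higher and 23 lower genes as the rule requires, while the disc columns are close to 0 for all but a few rows.

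Among the higher genes, CG13488 had the largest smaller-of-2 difference. It read 5.71 and 5.23 in control larvae, 8.50 and 8.91 in jarid2-mb larvae and 8.75 and 8.20 in larvae labelled ez-rnai, differences of 3.23 and 3.01. CG9903 read 8.58 and 8.40 in controls, 11.53 and 11.44 in jarid2-mb larvae and 11.52 and 11.85 in ez-rnai larvae, 7.96-fold and 9.14-fold above control. In CG13488 the lowest perturbed array stood 2.49 above the higher control array, and in CG9903 it stood 2.86 above. CG13461 read 6.63 and 6.07 in controls, 10.27 and 9.66 in jarid2-mb larvae and 8.46 and 9.53 in ez-rnai larvae.

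CG18585 read 7.98 and 8.24 in controls, 10.66 and 10.02 in jarid2-mb larvae and 11.52 and 11.75 in ez-rnai larvae, so its arrays labelled ez-rnai stood above those of jarid2-mb larvae. CG18649 read 7.74 and 8.45, then 10.34 and 9.87, then 10.00 and 10.95 in the same order of groups, with the perturbed groups interleaved. CG15394 read 6.59 and 6.29 in controls, 8.77 and 8.65 in jarid2-mb larvae and 8.32 and 7.77 in ez-rnai larvae. These 3 genes were measured well above the lower quartile of their arrays in all larval groups. CG5866 and CG5348 were less even: CG5866 read 6.59 and 8.09 in the 2 arrays of jarid2-mb larvae against 4.83 and 5.31 in controls, and CG5348 read 6.88 and 5.38 in the 2 arrays labelled ez-rnai against 4.15 and 4.02 in controls. Control values of CG5348 lay below the lower quartile of the control arrays (5.13 and 5.09), where a probe set may be close to background, so the size of its difference is uncertain. In 4 of the 35 higher genes both control arrays lay below that quartile.

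Of the lower genes CG14852 had the largest smaller-of-2 difference. It read 10.91 and 11.36 in control larvae, 6.72 and 6.41 in jarid2-mb larvae and 5.65 and 6.36 in larvae labelled ez-rnai, 23.7-fold and 35.0-fold below control, and the nearest perturbed array was 4.19 below the nearest control. CG11893 read 9.89 and 9.20 in controls, 4.30 and 4.63 in jarid2-mb larvae and 6.47 and 5.69 in ez-rnai larvae, and CG17191 read 9.85 and 9.22, then 4.44 and 4.66, then 7.0 and 7.35. Both jarid2-mb arrays of the last 2 genes lay below the lower quartile of their arrays (5.09 and 5.13), so the size of their difference in that group is uncertain. CG33337 read 6.74 and 6.83 in controls and between 3.97 and 4.81 in the 4 perturbed arrays, all of them below the lower quartile. In all, both jarid2-mb arrays were this dim for 3 lower genes and both ez-rnai arrays for 4.

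The most abundant signal among the lower genes was that of CG31313, which stayed bright in every larval array. It read 13.89 and 14.16 in controls, 11.96 and 11.53 in jarid2-mb larvae and 11.83 and 12.20 in ez-rnai larvae, 4.86-fold and 4.02-fold below control. CG44014 read 11.76 in both control arrays, 9.39 and 9.22 in jarid2-mb larvae and 10.08 and 9.95 in ez-rnai larvae. CG13833 read 9.55 and 9.92, then 7.43 and 7.18, then 8.09 and 8.24. In these last 2 genes the 3 larval groups did not overlap, with jarid2-mb larvae lowest. CG5550 read 8.50 and 9.5 in controls, 7.36 and 7.37 in jarid2-mb larvae and 6.61 and 7.07 in ez-rnai larvae. CG30026 was uneven, at 7.66 and 8.74 in controls, 7.5 and 5.28 in jarid2-mb larvae and 5.08 and 5.15 in ez-rnai larvae, so that its first jarid2-mb array stood 0.15 below the nearest control array.

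**Figure D2:**
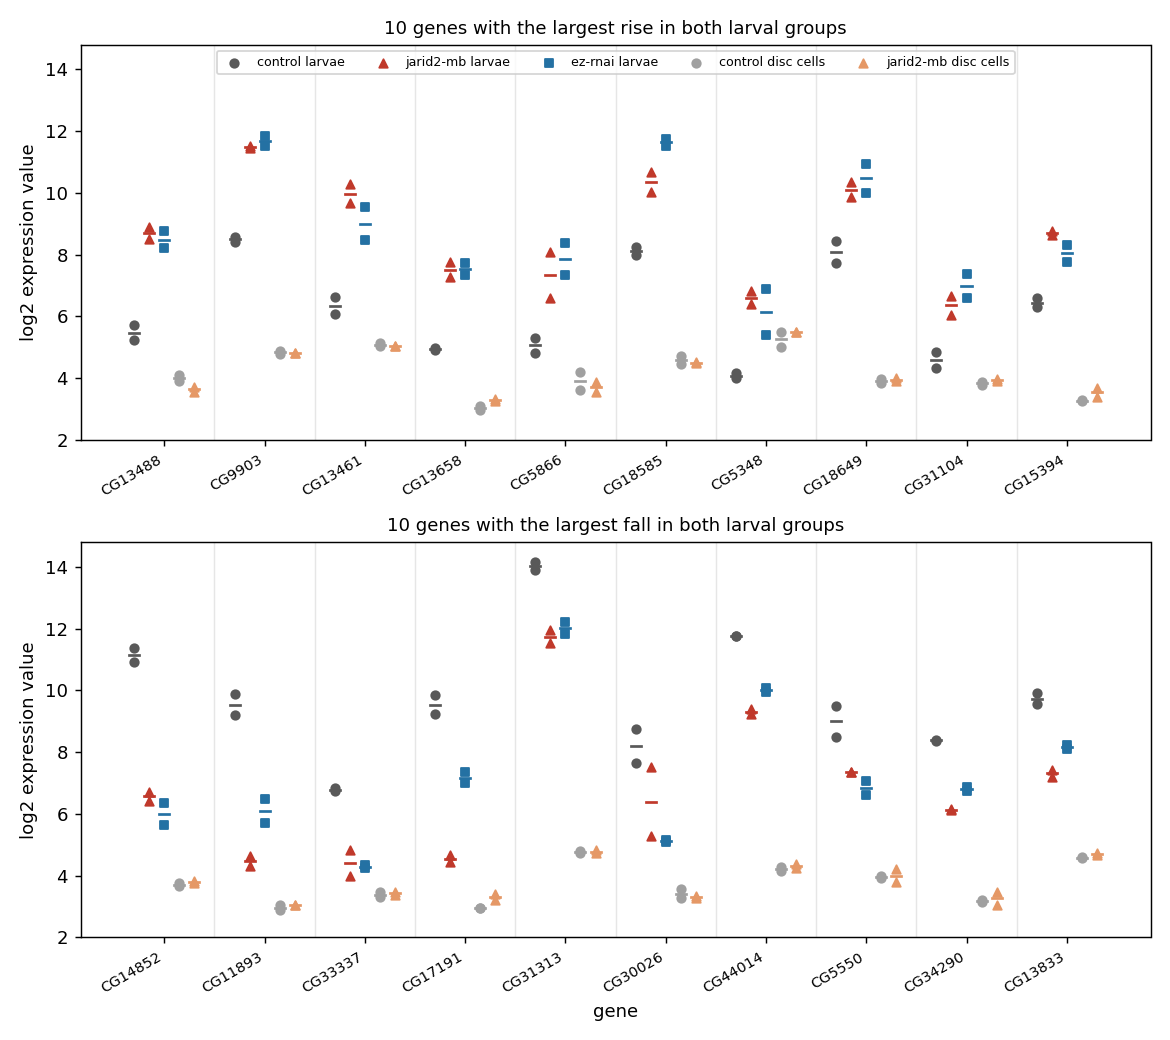
Log2 expression values in each of the 10 arrays (points, with a bar at the mean of the 2 arrays of a group) for 20 of the 58 genes, the 10 higher and 10 lower ones whose smaller larval difference was largest. CG14852 stands between 10.91 and 11.36 in control larvae and between 5.65 and 6.72 in the 4 perturbed larval arrays, and CG30026 shows the widest gap between its jarid2-mb arrays, 7.5 against 5.28.

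Of the 58 genes 6 carried an ecdysteroid kinase-like synonym, 4 of them higher and 2 lower. The reference gene table lists 51 genes of this family and the array measured 46, so 13.0% of the measured family met the rule. For the 42 measured family genes with only a CG number the share was 14.3%, against 1.11% of all genes with only a CG number. The family was picked out after the values were seen, and many of its genes lie side by side and may share probe sequence, so the share is given as a description. Over the 46 family genes the median difference was 0.18 in jarid2-mb larvae and 0.12 in larvae labelled ez-rnai, and 7 genes (15.2%) differed by at least 1 in each comparison, against 2.76% and 3.05% of all genes. Beside the 6 genes that met the rule these counts hold CHKov1 in jarid2-mb larvae and CG6908 in larvae labelled ez-rnai.

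The 6 kinase-like genes all lie on chromosome arm 3R, and 3 of them are consecutive genes of the reference table that did not all differ in the same direction. CG31104 read 4.34 and 4.84 in control larvae, 6.66 and 6.05 in jarid2-mb larvae and 6.59 and 7.38 in larvae labelled ez-rnai. CG13658, the next gene, read 4.97 and 4.91, then 7.76 and 7.27, then 7.34 and 7.73. CG11893, which follows it, went the other way, from 9.89 and 9.20 in controls, as given above. So CG31104 and CG13658 stood below the lower quartile in controls and were higher in the perturbed larvae, whereas their neighbour CG11893, bright in controls, was lower. The sizes of these differences are uncertain wherever an array lay below the quartile, which includes both jarid2-mb arrays of CG11893.

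A second group of the family held CG10559, CG10553, CG10560, CG10562, CHKov1 and CHKov2 in that order. CG10559 read 6.0 and 6.14 in controls, 7.63 and 7.36 in jarid2-mb larvae and 7.10 and 7.47 in ez-rnai larvae. CG10562 was lower, at 6.86 and 7.23 in controls, then 5.60 and 5.57, then 5.02 and 5.79. The genes between them did not meet the rule: CG10553 differed from control by -0.07 and -0.15, and CG10560 by 0.99 in jarid2-mb larvae and by 0.00 in ez-rnai larvae. CHKov1, which has a name and so could not be one of the 58, differed by 1.20 and 0.15, and CHKov2 by 0.01 and -0.04. CG31380 read 5.76 and 6.0 in controls, 7.76 and 6.98 in jarid2-mb larvae and 8.79 and 8.74 in ez-rnai larvae. Just outside the rule stood a further family gene, CG6908, whose smaller difference was 0.98. In disc cells the 6 kinase-like genes read between 2.89 and 5.66 in all 4 arrays, with mutant minus control differences from -0.03 to 0.27.

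**Figure D3:**
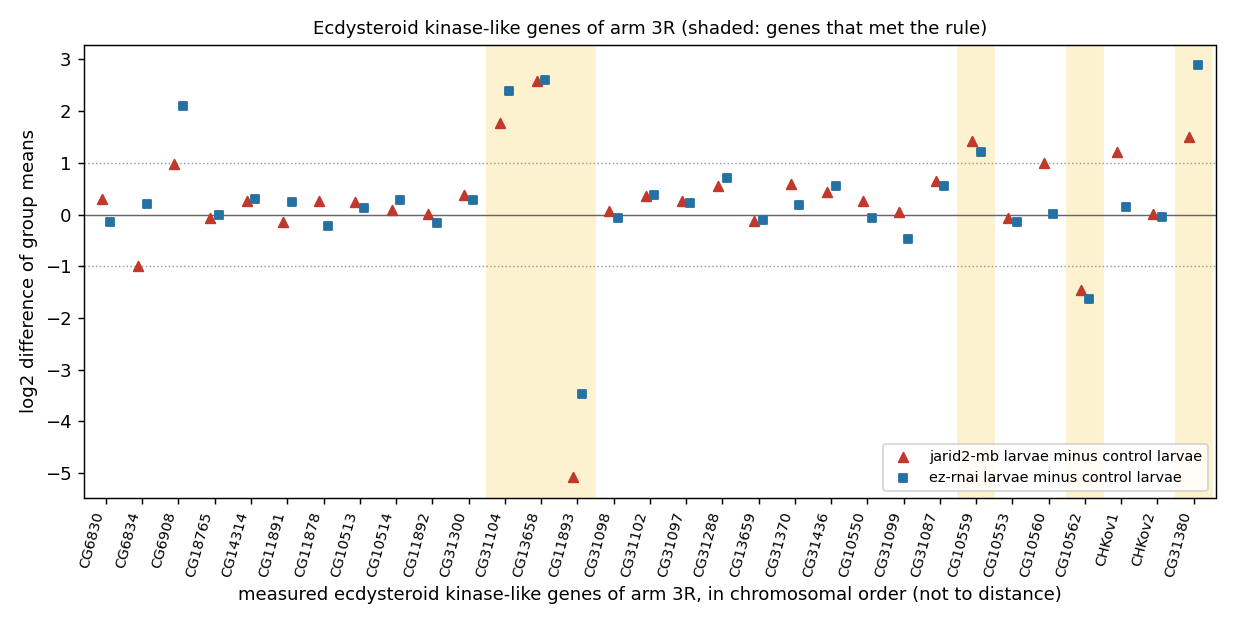
Log2 difference from control larvae of jarid2-mb larvae (triangles) and of larvae labelled ez-rnai (squares) for the measured ecdysteroid kinase-like genes of arm 3R in chromosomal order, with dotted lines at a difference of 1 either way and shading for genes that met the rule. The adjacent genes CG31104 and CG13658 are higher in both groups while their neighbour CG11893 is lower by 5.08 and 3.46, and most other genes of the row lie within 1 of control.

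Of the 58 genes 4 carried an SP synonym of the kind given to serine proteases. No share of the protease family itself is given, because the synonym does not mark that family alone. Of the 181 measured genes with such a synonym 2.21% were among the 58. For the 121 of them with only a CG number the share was 3.31%, against 1.11% of all genes with only a CG number. Of the 181 genes 14.4% differed by at least 1 in jarid2-mb larvae and 8.84% in larvae labelled ez-rnai. Over all genes these shares were 2.76% and 3.05%. They are given as a description, as for the kinase-like genes. CG30083 (SP217) read 10.61 and 9.62 in control larvae, 6.32 and 6.21 in jarid2-mb larvae and 8.82 and 8.29 in larvae labelled ez-rnai. CG34290 (SP245) read 8.36 and 8.40, then 6.11 and 6.17, then 6.86 and 6.74. Both were lowest in jarid2-mb larvae without overlap between the 3 larval groups. The other two were higher, CG11313 (SP11) by 1.28 and 1.35 and CG6865 (SP63) by 1.00 and 1.18. CG30098 and CG33462, which carry such synonyms too, met the larval part of the rule but were left out because they differed between mutant and control disc cells by -3.06 and -3.0.

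CG9577 has the synonym Ech1, a name used for an enzyme of fatty acid oxidation, and was the one gene of the 58 that read above 11 in every array of the series. It read 11.39 and 11.15 in control larvae, 12.88 and 12.86 in jarid2-mb larvae, 13.11 and 12.90 in larvae labelled ez-rnai and 11.88 to 12.08 in the 4 disc arrays. It was 3.03-fold and 3.32-fold higher in the perturbed larval groups, while the mutant disc arrays overlapped the control disc arrays.

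Of the 58 genes 57 had a position in the reference table, and 15 of these lay within 20 kb of another of the 58, in 9 pairs. Several pairs are formed by the same genes, CG31104, CG13658 and CG11893, so the pairs are not independent. The share over all genes was not counted, so nothing is read from the number of pairs. In 5 pairs both genes differed from control in the same direction. CG14852 and CG31313 are adjacent and both lower. CG18585 and CG7025 are adjacent and both higher, CG7025 with 6.71 and 6.79 in controls, 8.44 and 7.81 in jarid2-mb larvae and 7.76 and 7.98 in ez-rnai larvae. CG13461 and CG18649, with 1 gene between them in the table, were both higher, as were CG6912 and CG3984, again with 1 gene between. The fifth such pair was CG31104 and CG13658. Opposite directions were found for CG11893 with each of these genes, for CG10559 and CG10562, and for CG5866, which was higher, and CG17283, which read 6.32 and 6.44 in controls and 4.79 to 5.15 in the 4 perturbed arrays. Neighbours in a family can share probe sequence, which was not examined here.

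By arm, 25 of the 57 placed genes (43.9%) lay on 3R, against 24.4% of all measured genes with only a CG number and 19.1% of the genes with another symbol that met the same rule. Of the 25 genes 13 were higher and 12 lower, and they include the 6 kinase-like genes, so they are not independent of each other. Arm 3L held 10 of the 57, 9 higher and 1 lower, 2R held 9, X held 7 and 2L held 6. Genes with another symbol that met the rule lay on 3L and 2R in 15 cases each. Jarid2 and the TM3 balancer belong to the third chromosome, and whether arm and genotype are linked here was not tested.

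The nearest measured genes on either side of the 58 were then examined, to compare the neighbourhoods with the 58 genes. This list was set by position, except that genes already among the 58 were skipped, which left 102 flanking genes. The skipped neighbours had met the rule on the same larval arrays. The shares called below are therefore not independent of the choice, and nothing is read from their sizes. In jarid2-mb larvae 2 of the 102 flanking genes (1.96%) were higher than in control larvae and 0 were lower at an adjusted p under 0.05 in limma, where 0.918% of all genes passed (0.484% higher, 0.434% lower). In larvae labelled ez-rnai 1 (0.98%) was higher and 0 were lower, where 0.976% of all genes passed (0.584% higher, 0.392% lower). Median differences of the flanking genes were -0.04 and -0.10, and single values ran from -1.38 to 1.41 and from -1.76 to 1.75. Both lowest values were those of CG33462, a neighbour of CG30083. CG33462 met the larval part of the rule and was left out of the 58 by its disc difference.

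The flanking genes that passed were lncRNA:CR32027 and CG8066. lncRNA:CR32027, a non-coding RNA next to CG6865, read 4.51 and 4.44 in control larvae, 5.62 and 5.55 in jarid2-mb larvae and 6.25 and 6.21 in larvae labelled ez-rnai. It was higher by 1.11 ± 0.12 (SE, n = 2 arrays per group, limma adjusted p = 0.0214) and by 1.75 ± 0.12 (limma adjusted p = 0.00978). Its control arrays lay below the lower quartile, so the sizes of these differences are uncertain too. CG8066, beside CG31313 and CG14852, read 6.29 and 6.38 in controls, 7.77 and 7.73 in jarid2-mb larvae and 6.68 and 7.18 in ez-rnai larvae. It rose by 1.41 ± 0.19 in jarid2-mb larvae (limma adjusted p = 0.0445) beside 2 genes that were lower, and its difference of 0.60 ± 0.19 in ez-rnai larvae did not pass (limma adjusted p = 0.234). Without either control array neither comparison called any flanking gene, and a fit of all 5 groups called 5 and 8.

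The difference between the 2 perturbed larval groups was tested in limma over all 18769 probe sets, with the 6 larval arrays in the fit. The rule did not use this difference itself. It did ask both groups to differ from control in the same direction, so the adjusted p values of the 58 genes are not independent of the choice. Of the 58 genes 3 (5.17%) differed between jarid2-mb larvae and larvae labelled ez-rnai at an adjusted p under 0.05, where 1.41% of all genes did, and all 3 were lower in jarid2-mb larvae. Of all genes 0.693% were lower and 0.718% higher in this contrast. Since the same 4 perturbed arrays chose the genes, their share is not independent of the choice, and nothing is read from its size. An unadjusted p under 0.05 was found for 16 of the 58 (27.6%), beside 15.5% of all genes, with the same limit. The arrays of the 2 groups did not overlap for 26 of the 58 genes (44.8%), where 46.4% of all genes showed such an order. The median difference, jarid2-mb minus ez-rnai, was -0.07 with a range of -2.63 to 1.28.

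CG17191 was lower in jarid2-mb larvae than in larvae labelled ez-rnai by a log2 difference of -2.63 ± 0.25 (SE, n = 2 arrays per group, limma adjusted p = 0.0165), so that it lay further below control in the Jarid2 line. CG6912 read 6.43 and 6.49 in controls, 7.44 and 7.55 in jarid2-mb larvae and 8.70 and 9.08 in ez-rnai larvae, and the last 2 groups differed by -1.39 ± 0.16 (limma adjusted p = 0.0256). CG7322 read 10.39 and 10.45, then 11.48 and 11.37, then 12.20 and 12.25, with a difference of -0.80 ± 0.12 (limma adjusted p = 0.0481). In the last 2 genes the difference from control was thus smaller in jarid2-mb larvae. In a fit of the compared groups alone CG17191 passed (limma adjusted p = 0.0224), while CG6912 (0.0537) and CG7322 (0.0817) missed the threshold. Leaving out a control array gives this same contrast, because the remaining one adds no spread, so it is no check on the controls. The 3 calls did not hold with an array of a perturbed group left out, which leaves 1 array in that group.

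Close to the threshold were CG4716 and CG30083, at limma adjusted p = 0.0520 and 0.0528. CG4716 read 11.41 and 11.69 in controls, 9.95 and 10.36 in jarid2-mb larvae and 8.79 and 8.99 in ez-rnai larvae, so that its levels in ez-rnai larvae were the lower ones by 1.27 ± 0.19. CG30083 differed by -2.29 ± 0.35 the other way. It passed in a fit of all 5 groups (limma adjusted p = 0.0201) and in a fit of the compared groups alone (limma adjusted p = 0.0344), so its call depends on the fit. For the genes that missed the threshold equal levels are not shown, since the standard errors of this contrast ran from 0.12 to 0.74 over the 58 genes, with a median of 0.27.

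**Figure D4:**
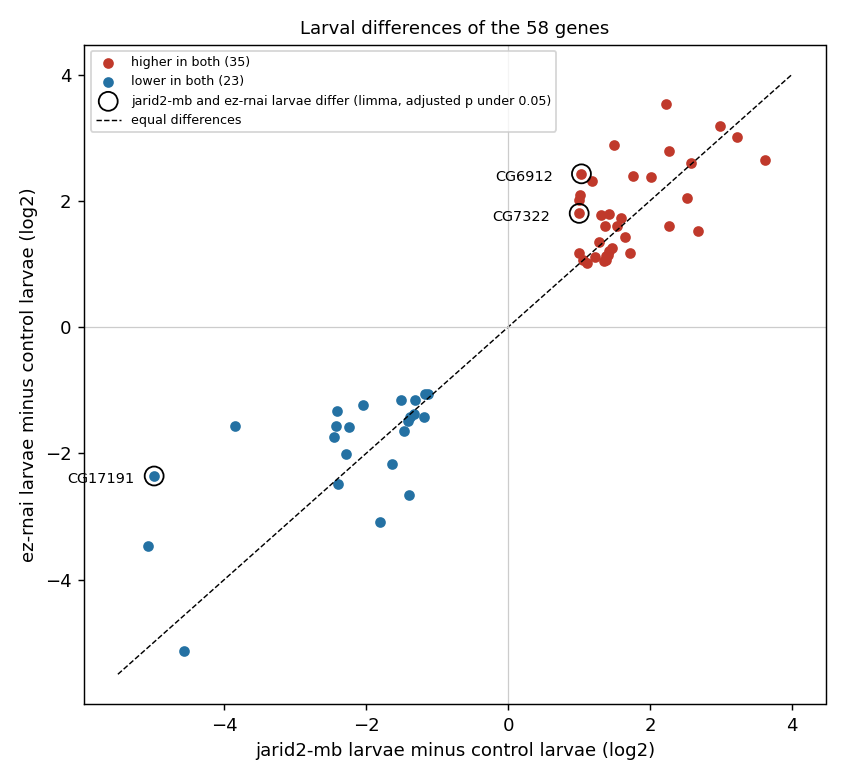
Log2 difference from control larvae in jarid2-mb larvae (horizontal) and in larvae labelled ez-rnai (vertical) for the 58 genes, with a dashed line where both are equal and circles around the 3 genes that differed between the perturbed groups. Both axes share the control arrays, and no point lies within 1 of 0 on either axis because the rule excludes such genes. The circled genes CG17191, CG6912 and CG7322 all lie above the dashed line.

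In eye-antennal disc cells most of the 58 genes were dim. All 4 disc arrays lay below the array median for 49 of the 58 genes (84.5%), against 48.5% of all genes with only a CG number. The control disc mean lay below all 6 larval arrays for 53 of the 58 (91.4%), where the share was 63.1% over genes with only a CG number. The lower medians of the disc arrays enter such a comparison between tissues. The rule also used the larval arrays and left out genes far lower in mutant disc cells. Both shares are thus not independent of the choice, and nothing is read from their sizes. The 5 exceptions were CG9577, CG10927, CG5348, CG42335 and CG42633. CG10927 read 7.72 and 7.71 in control disc cells and 7.97 and 8.05 in mutant disc cells, against 5.88 and 5.94 in control larvae and 7.12 to 7.51 in the perturbed larvae. The 8 listed regulators of the labelled tissue (such as ey, eya, so and dac) averaged 11.28 to 11.81 in disc arrays and 7.57 to 7.95 in larval arrays.

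Differences between mutant and control disc cells are given as a description, since the rule removed 4 genes that were far lower in mutant disc cells (-5.65 to -3.0) and most of the 58 were dim there. The median disc difference was 0.04 for the 35 higher and 0.08 for the 23 lower genes, beside 0.08 over all genes, and 55 of the 58 differences (94.8%) were under 0.5 in size, as were 91.6% over all genes. The disc arrays of the 2 groups did not overlap for 27 of the 58 genes, with the mutant higher for 21 and lower for 6, where 41.4% of all genes were higher and 16.5% lower in this sense, 58% in all. Since the rule also used this difference, nothing is read from these counts.

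Disc differences of at least 1 in size were found for 2 of the 58 genes (3.45%), beside 3.1% of all genes. CG4962 read 5.99 and 5.44 in control and 7.33 and 7.35 in mutant disc cells, a difference of 1.62 in the direction of its larval difference, where it read 6.29 and 6.22 in controls, 8.09 and 7.87 in jarid2-mb larvae and 6.84 and 8.02 in larvae labelled ez-rnai. CG30083 read 6.18 and 5.10 in control and 3.89 and 3.83 in mutant disc cells, a difference of -1.78 that stood just inside the exclusion at 2. Beside it, 8 of the 9 listed haemocyte (blood cell) markers were lower in mutant disc cells by 4.48 to 7.04, the exception being lz at 0.63, and the mean of the list was 10.75 and 11.74 in control against 6.0 and 6.41 in mutant disc arrays. The part of haemocytes in the value of CG30083 was not tested. CG7322 read 8.45 and 8.58 in control and 7.84 and 7.61 in mutant disc cells, opposite to its larval difference, and the next lowest disc difference was that of CG13488 at -0.38. Among the lower genes the highest disc difference above 0 was that of CG3528, at 0.41, which in larvae read 8.24 and 9.42 in controls, 6.68 and 6.15 in the Jarid2 line and 7.77 and 7.23 under the ez-rnai label.

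**Figure D5:**
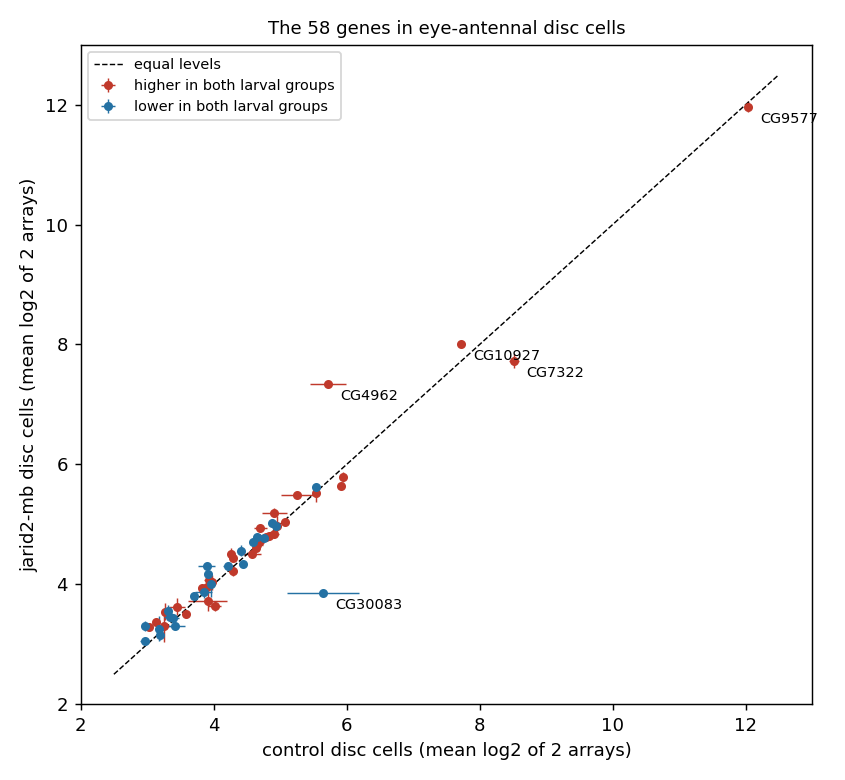
Mean log2 value in mutant disc cells against that in control disc cells for the 58 genes, with error bars that span the 2 arrays of each group and a dashed line of equal levels. Most genes lie below 6 and on the line, CG4962 lies above it by 1.62, CG30083 and CG7322 lie below it, and CG9577 is bright in both groups.

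Marker levels of other larval tissues are given for comparison. None of the 4 measured fat body, 7 salivary gland, 4 muscle or 10 male germline markers met the larval part of the rule, and the list means of fat body lay between 14.58 and 14.67 in all 6 larval arrays. The male germline list averaged 7.99 and 8.93 in the 2 control arrays and 7.78 to 8.47 in the perturbed larvae, so the second control array stood above the rest. Muscle markers averaged 10.16 and 10.87 in controls, 10.58 and 10.78 in jarid2-mb larvae and 10.92 and 12.01 in ez-rnai larvae, and salivary gland markers 14.39 in both control arrays and 14.05 and 14.08 in ez-rnai larvae. Of 7 midgut markers 3 were higher in both groups by the same rule (Jon25Bi, Jon74E and LysX). The other 4 had differences below 0 in jarid2-mb larvae (Jon99Ci -4.03, Mal-A1 -0.76, betaTry -0.40 and alphaTry -0.25), and in ez-rnai larvae Mal-A1 differed by -1.22 and Jon99Ci by 0.14. The median difference of the list was -0.25 in jarid2-mb larvae and 0.14 in ez-rnai larvae, while list means were 11.51 and 11.60 in controls, 11.75 and 11.90 in jarid2-mb larvae and at least 12.19 in ez-rnai larvae. Of 9 haemocyte markers the prophenoloxidase gene PPO1 was higher and NimC1 lower by that rule. PPO2 differed by 1.55 in jarid2-mb larvae and by 1.15 in ez-rnai larvae without meeting it. The median difference of the haemocyte list was 0.05 and 0.21 in the same order. The part of these tissues in the 58 differences was not tested.

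At the edge of the rule, the smallest differences inside it were those of CG6865 (1.00 in jarid2-mb larvae), CG7322 (1.00) and CG3984 (1.01), and the nearest genes outside it were CG13078 (0.99), CG7763 (0.98, in larvae labelled ez-rnai) and CG6908 (0.98). CG3984 read 6.51 and 7.66 in controls, 8.32 and 7.86 in jarid2-mb larvae and 9.03 and 9.16 in ez-rnai larvae, so the lower of its jarid2-mb arrays stood 0.20 above the second control array. Of the 58 genes 11 had a smaller difference of at most 1.1, and 10 genes outside had one of at least 0.9. Most of the 58 genes rest on 1 probe set, and 4 had several. The second probe set of CG4716 gave -1.60 and -2.73 beside -1.39 and -2.66, and that of CG42335 gave 1.74 and 0.26 beside 2.67 and 1.52. For CG44014 one further probe set gave -2.27 and -1.59, beside -2.45 and -1.74 on the brightest, and the dimmest gave 0.24 and 0.50. For CG34005, which was higher by 1.23 and 1.11 on its brightest probe set, the dim others gave -0.15 and 0.22, and -1.08 and 0.63. The direction of CG34005 thus rests on the probe set chosen, while that of CG44014 was shared by all but its dimmest probe set.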

How the data were processed

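Deposited values were 1 log2 expression value per probe set and array, as their range shows. The submitters' processing notes name limma 3.4.3, and their background correction, normalization and probe set summary are not stated in the labels. All 10 columns were matched to samples by name. Of 18952 probe sets, 183 control probe sets were left out, and of the other 18769 the platform annotation named 1 gene for 13647, several for 402 and none for 4720. Genes were named from probe sets with 1 gene, the one with the highest mean over 10 arrays representing each gene. Of the 13647, 13544 matched the reference gene table (Release 6 plus ISO1 MT), which served for synonyms and the order of genes. No filter on low values was applied, so all 58 genes entered every count.

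Group means of the 6 larval arrays were fitted in R 4.3.3 by limma 3.58.1 (lmFit, then eBayes; 3 residual and 2.72 prior degrees of freedom), two-sided, with Benjamini-Hochberg adjustment over 18769 probe sets. Disc arrays were kept out of the fit because their spread is smaller, with median differences between the 2 arrays of a group of 0.096 and 0.114 over all genes, against 0.167 to 0.236 in larval groups. The fit was also run on simulated data with independent noise for each probe set and array. No result here rests on that run. Genes named individually were the 10 largest each way by the smaller larval difference, those called in the direct contrast, the 3 highest and 3 lowest in discs, those within 20 kb of each other, the 3 nearest the rule's edge on either side, and those whose probe sets differ in sign. CG4716, CG9577, CG10927, CG42335, CG42633, CG8066, lncRNA:CR32027 and the genes named for a kinase-like or SP synonym alone, with CG4678, CG7406, CG9458 and CG18682, were chosen after their values were seen. The genes and lists were chosen with earlier results of these data known. Protein and promoter features were not analysed here. Arrays number 2 per group, which limits the precision of every value. Figures were drawn with matplotlib 3.10.9. Alternatives are listed with their effects in the closing section.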

Additional observations from a re-analysis of the deposited data

Results flagged for a closer look

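For 15 of the 58 genes both mutant disc arrays lay on the other side of the control disc arrays than the larval arrays did, an order that was not tested. This held for 4 of the 35 higher genes (11.4%) and 11 of the 23 lower genes (47.8%), where over all genes 16.5% were lower and 41.4% higher in mutant disc arrays without overlap. These shares are near those over all genes, so no difference between tissues is read from them. Among genes that were higher in larvae, the disc difference was -0.38 for CG13488, -0.27 for CG11313, -0.16 for CG6912 and -0.79 for CG7322, beside larval Jarid2 differences of 3.23, 1.28, 1.03 and 1.00. Among genes that were lower in larvae, it was 0.0869 for CG14852, 0.0845 for CG11893, 0.34 for CG17191, 0.12 for CG13833, 0.41 for CG3528, 0.26 for CG10562 and 0.23 for CG17283. It was 0.15 for CG4678, 0.14 for both CG9458 and CG18682, and 0.0811 for CG7406. Of these 15 genes CG7322 was the one with disc values as high as 7.61 to 8.58, beside array medians of 5.55 to 5.62. All 4 disc arrays lay below the lower quartile for CG13488, CG14852, CG11893, CG17191, CG10562 and CG17283, where a probe set may be close to background.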

How the results depend on the processing

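The 58 genes became 56 after quantile normalization within each tissue (54 shared), 63 after that of all arrays (49 shared), 55 with the mean of all probe sets, 62 without the disc exclusion and 24 with a minimum difference of 1.5. Leaving out 1 larval array gave 57 to 338 genes, the highest count without the first control array. Disc medians moved by less than the spread between arrays under every alternative run.

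The direct contrast called 3 of the 58 genes, and 13 in a fit of all 5 groups, 5 with an intensity trend, 1 after quantile normalization of all arrays, and 0 with the replicate number as a replicate block. Leaving out 1 larval array gave 0 to 2. Over all probe sets the count was 252, against 1146 with all 5 groups, 391 with the trend, 139 after quantile normalization of all arrays or without the dimmest 30%, and 45 with the block.

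Flanking genes called in jarid2-mb larvae were 2, against 5 with all 5 groups, 1 with the compared groups alone, with either quantile normalization or without the dimmest 30%, 0 with the replicate block, and 0 to 1 with 1 larval array left out. In ez-rnai larvae the count was 1, against 8 with all 5 groups, 0 with the compared groups alone, 1 with the replicate block, and 0 with any larval array left out. With the control numbers crossed, chosen after seeing the data, the block called 2 and 1. The cause of these changes was not tested. The main fit did not pair samples by replicate number. Deviations of same-numbered arrays correlated at -0.42 between control and jarid2-mb larvae, -0.21 between control and ez-rnai larvae and 0.01 between the perturbed groups. These values do not settle whether samples were handled in pairs.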
